A study of Saccharomyces cerevisiae with 4 samples.

Results

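The thioredoxin system of baker's yeast was examined through 10 genes, chosen by name: the thioredoxins TRX1, TRX2 and TRX3, the thioredoxin reductases TRR1 and TRR2, the peroxiredoxins TSA1, TSA2, AHP1 and PRX1, and the sulfiredoxin SRX1. All 10 were found among the 6209 genes of the count table by their systematic names, and all 10 passed the filter on low counts. Cells of the strain BY4741, whose genotype is MATa his3 leu2 met15 ura3, were grown in YPD at 28 °C, and 2 untreated cultures were compared with 2 cultures given 3 µg/mL thiolutin for 3 h. Thiolutin is a sulfur-containing antibiotic with a dithiole ring that is used to block transcription. RNA carrying a poly(A) tail was sequenced, and reads were counted per gene. The study's design text speaks of 3 replicates per condition and its methods of 2 experiments, and 4 libraries were analysed here. The labels place the cultures in exponential growth, whereas the methods mention overnight cultures.

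Thioredoxins are small proteins that pass electrons to oxidized cysteines of other proteins and become oxidized themselves. Thioredoxin reductase restores them with electrons from NADPH. Peroxiredoxins break down hydrogen peroxide and organic peroxides with a reactive cysteine and are in turn reduced by thioredoxin, and sulfiredoxin repairs peroxiredoxins whose cysteine has been oxidized further, to sulfinic acid. Yeast keeps separate cytosolic and mitochondrial branches. Trx1, Trx2, Trr1, Tsa1, Tsa2, Ahp1 and Srx1 work mainly in the cytosol, while Trx3, Trr2 and the peroxiredoxin Prx1 are mitochondrial. The transcription factor Yap1, which peroxide activates through cysteine oxidation, and its partner Skn7 are known to drive several of these genes.

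The 4 libraries held 17038991 to 30205335 reads in genes, with the 2 thiolutin libraries the shallower. Counts were scaled by TMM, which assumes that most genes keep their level, and are called normalised counts below. A gene was called changed when the adjusted p of edgeR's quasi-likelihood test, taken over 5937 genes, was under 0.05. The libraries of the untreated pair differed more from each other than those of the thiolutin pair, with a common biological coefficient of variation of 16.7% against 2.32%. With total counts as the scale in place of TMM, log2 fold changes were lower by 0.59, so a change is relative to the other genes and not an amount per cell. A change in some of the cells and a change in the RNA of every cell cannot be told apart. Of 7 genes specific to mating type a, all had reads in every library, and their summed normalised counts were 41387 to 53845 in untreated and 22087 to 22334 in thiolutin libraries, with 6 called lower. The 4 genes specific to mating type alpha summed to 1089 to 1219, and none of them was at 0. Of the 4 genes that the genotype names as mutated, only HIS3 was found by that name in the table used. LEU2, MET15 and URA3 were not looked up by systematic name and were not analysed here. HIS3, of which BY4741 is known to keep a part, had 507 to 3191 reads.

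With thiolutin, 6 of the 10 genes were called higher (TRX2, TRR1, TSA1, AHP1, PRX1 and SRX1), 2 were called lower (TRX3 and TRR2), and TRX1 and TSA2 were not called. Of all genes tested, 31.2% were called higher, 32.4% lower and 63.6% in either direction. The median log2 fold change of the 10 genes was 1.61 and that of all genes tested was -0.04. Among the 10 genes, 5 were both called higher and raised by 1 or more on the log2 scale, and 15.7% of all genes tested met both conditions. PRX1, at 1.00, lay just under that limit. For 8 of the 10 genes each thiolutin library exceeded each untreated one, and for 2 genes each lay below, and for all genes tested these shares were 40.8% and 43.9%. With total counts as the scale, 5 were higher and 3 lower, since PRX1 was no longer called and TRX1 was called lower. Over all genes that scale gave 965 higher and 3605 lower in place of 1850 and 1924.

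**Figure D1:**
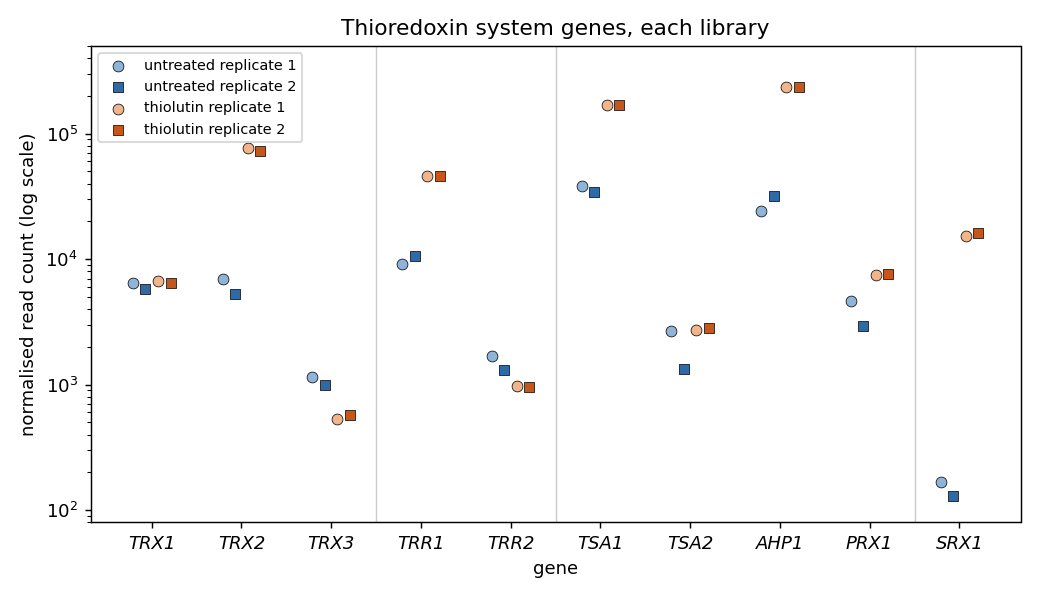
Normalised read counts (log scale) of the 10 genes in each of the 4 libraries. The thiolutin points of TRX2, TRR1, TSA1, AHP1 and SRX1 stand well above the untreated points, those of TRX3 and TRR2 lie below them, and those of TRX1 and TSA2 lie beside the higher untreated library. Vertical lines separate thioredoxins, reductases, peroxiredoxins and sulfiredoxin.

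Together, the reads of the 10 genes made up 0.442% and 0.443% of the reads of the untreated libraries and 1.74% and 1.73% of those of the thiolutin libraries. These shares are taken over the total reads of each library without TMM, so they stand on the scale of total counts. Without TSA1 and AHP1, the other 8 genes held 0.153% and 0.132% of the untreated reads and 0.485% and 0.478% of the thiolutin reads. The rise in the summed reads was seen without the pair with the most reads as well. It came mainly from TRX2 (0.0324% and 0.0245% in untreated, 0.238% and 0.228% in thiolutin libraries), TRR1 and SRX1. TRR1 went from 0.0427% and 0.0493% to 0.143% and 0.144%, and SRX1 from 0.000778% and 0.000604% to 0.0472% and 0.0499%. The shares of TRX1, TRX3 and TRR2 fell, that of PRX1 rose slightly, and that of TSA2 lay within the untreated range. An exact permutation test over 2 against 2 libraries cannot give a two-sided p below 0.333, so shares are given as descriptions.

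Among the thioredoxins, TRX2 rose while its cytosolic paralog TRX1 was not called and the mitochondrial TRX3 fell. TRX2 (YGR209C, chromosome VII, 912913 to 913227, minus strand of R64) had 6967 and 5241 normalised counts in untreated and 76809.5 and 73253 in thiolutin libraries. Both thiolutin libraries were far above both untreated ones. The mean went from 6104 ± 1221 to 75031 ± 2515 normalised counts (SD, n = 2 per group), a 12.3-fold difference. The log2 fold change of TRX2 was 3.62 (standard error 0.18, adjusted p = 0.00017 from edgeR), the 82nd highest of all genes tested. TRX1 (YLR043C, chromosome XII, 231702 to 232013, minus strand) had 6424 and 5760.3 normalised counts in untreated and 6670.4 and 6447 in thiolutin libraries. The lower thiolutin library exceeded the higher untreated one by a margin smaller than the gap within either pair. The log2 fold change of TRX1 was 0.11 (standard error 0.10, adjusted p = 0.393 from edgeR) and turned to -0.48 (adjusted p = 0.00782) with total counts as the scale. The log2 fold change of TRX1 was 0.20 without untreated replicate 1 and 0.03 without untreated replicate 2.

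TRX3 (YCR083W, chromosome III, 259578 to 259961, plus strand) had 1159.6 and 987 normalised counts in the untreated and 528 and 576 in the thiolutin libraries, and the groups did not overlap. TRX3 thus fell, its log2 fold change being -0.96 (standard error 0.13, adjusted p = 0.00234 from edgeR). In untreated cells TRX1 and TRX2 were nearly level per length. Levels in RPKM, reads divided by coding length and by the scaled depth of the library, were 743 ± 57.2 for TRX1 and 737 ± 147 for TRX2 (SD, n = 2). In thiolutin they were 799 ± 19.3 for TRX1 and 9059 ± 304 for TRX2. The mitochondrial TRX3 went from 106 ± 12.1 to 54.7 ± 3.40 RPKM.

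The active site that exchanges electrons is the sequence Cys-Gly-Pro-Cys, which all 3 thioredoxins carry. The coding sequence around it is shown because it is the part that the 3 genes share, and it also shows that reads of TRX1 and TRX2 can be told apart there. Each stretch is 42 bases on the gene's own strand of R64, with the codons of Cys-Gly-Pro-Cys in capitals, and the intervals are chrXII:231900-231941 for TRX1 and chrVII:913111-913152 for TRX2, both on the minus strand, and chrIII:259725-259766 on the plus strand for TRX3.
TRX1: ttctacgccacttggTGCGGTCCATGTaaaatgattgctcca
TRX2: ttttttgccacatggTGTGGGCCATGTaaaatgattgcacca
TRX3: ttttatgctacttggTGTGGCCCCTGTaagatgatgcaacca
The stretch of TRX2 differed from that of TRX1 at 7 of 42 bases, and the stretch of TRX3 differed at 11 bases from TRX1 and at 9 from TRX2. The whole coding sequences of TRX1 and TRX2 were 73.0% identical over 315 aligned positions, and the longest identical run was 17 bases. The coding sequences of TRR1 and TRR2 were 71.0% identical with a longest run of 20 bases, and those of TSA1 and TSA2 were 78.5% identical with a longest run of 14 bases. No window of 50 bases was shared within any of these pairs. Neither the read length nor the handling of reads with several matches is given in the sources used here.

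Thioredoxin reductase is the step that feeds electrons from NADPH into the system, and its cytosolic and mitochondrial forms moved in opposite directions. TRR1, the cytosolic form (YDR353W, chromosome IV, 1183299 to 1184258, plus strand), had 9202 and 10522 normalised counts in untreated and 46327 and 46198 in thiolutin libraries. The thiolutin libraries lay close together and well above the untreated pair. The mean went from 9862 ± 934 to 46263 ± 90.7 (SD, n = 2 per group), 4.69-fold, with a log2 fold change of TRR1 of 2.23 (standard error 0.11, adjusted p = 0.000188 from edgeR). TRR2, the mitochondrial form (YHR106W, chromosome VIII, 325598 to 326626, plus strand), had 1697 and 1306 normalised counts in untreated and 966 and 963 in thiolutin libraries, with no overlap. For TRR2 the log2 fold change was -0.64 (standard error 0.15, adjusted p = 0.0152 from edgeR). This call was lost without thiolutin replicate 1 and without thiolutin replicate 2, where the log2 fold change stayed at -0.643 and at -0.635. Fits without a thiolutin library take the spread from the untreated pair, whose libraries differed more from each other. Per length, TRR1 stood at 22.4% and 31.2% of the summed level of TRX1 and TRX2 in untreated cells and at 18.2% and 19.0% after thiolutin.

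**Figure D2:**
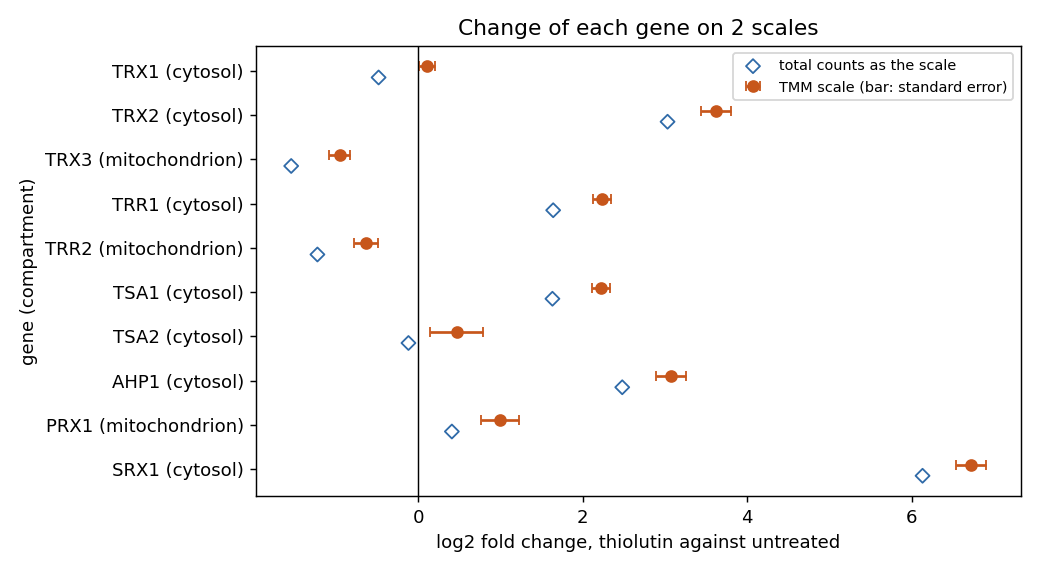
Log2 fold changes (thiolutin against untreated) of the 10 genes, with compartments in brackets: filled circles on the TMM scale with bars of 1 standard error, open diamonds with total counts as the scale. The diamonds sit about 0.59 to the left, so that TRX1 (0.11 and -0.48) and TSA2 (0.47 and -0.12) lie on either side of 0, whereas SRX1, TRX2, AHP1, TRR1 and TSA1 lie above 1 on both.

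The peroxiredoxins held most of the reads of the 10 genes, and AHP1 and TSA1 accounted for most of theirs. AHP1, an alkyl hydroperoxide reductase with a preference for organic peroxides (YLR109W, chromosome XII, 368781 to 369311, plus strand), had 24073 and 32112 normalised counts in untreated and 236786 and 235072 in thiolutin libraries. All thiolutin values were several times above the untreated ones. The mean of AHP1 went from 28092 ± 5685 to 235929 ± 1212 (SD, n = 2 per group), 8.40-fold, and its log2 fold change was 3.07 (standard error 0.18, adjusted p = 0.000257 from edgeR), the 135th highest. TSA1, the main cytosolic peroxiredoxin, which also acts as a chaperone (YML028W, chromosome XIII, 220138 to 220728, plus strand), had 38054 and 34324 normalised counts in untreated and 168945 and 168178 in thiolutin libraries. The groups were clearly apart. The mean of TSA1 went from 36189 ± 2637 to 168561 ± 543 (SD, n = 2 per group), 4.66-fold, and its log2 fold change was 2.22 (standard error 0.11, adjusted p = 0.000192 from edgeR).

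PRX1, the mitochondrial peroxiredoxin (YBL064C, chromosome II, 100371 to 101156, minus strand), had 4647 and 2908 normalised counts in untreated and 7422 and 7647 in thiolutin libraries. The groups did not overlap, but the untreated libraries differed 1.60-fold from each other. For PRX1 the log2 fold change was 1.00 (standard error 0.23, adjusted p = 0.015 from edgeR). The call was lost without thiolutin replicate 1 and without thiolutin replicate 2, at log2 fold changes of 1.015 and 0.976. It was also lost with total counts as the scale (0.41, adjusted p = 0.148 from edgeR). TSA2, the scarcer cytosolic paralog of TSA1 (YDR453C, chromosome IV, 1365072 to 1365662, minus strand), had 2666 and 1343 normalised counts in untreated and 2723 and 2818 in thiolutin libraries. The thiolutin libraries lay next to untreated replicate 1, and untreated replicate 2 was about 1.99-fold lower than it. The log2 fold change of TSA2 was 0.47 (standard error 0.32, adjusted p = 0.252 from edgeR), and it turned to -0.12 (adjusted p = 0.742) with total counts as the scale. Leaving out untreated replicate 1 gave 1.05 (adjusted p = 6.31e-36) and leaving out untreated replicate 2 gave 0.06 (adjusted p = 0.256), so the value of TSA2 depended on which untreated library was kept. Fits without an untreated library take the spread from the closely matched thiolutin pair.

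SRX1, which encodes the sulfiredoxin that restores overoxidized peroxiredoxins, changed most of the 10. SRX1 (YKL086W, chromosome XI, 278281 to 278664, plus strand) had 235 and 181 raw reads in untreated and 8038 and 10690 in thiolutin libraries. In normalised counts these were 167 and 129 against 15254 and 16039, and as a ratio of means, 106-fold, this was the widest gap among the 10 genes. The log2 fold change of 6.72 for SRX1 (standard error 0.18, adjusted p = 6.4e-05 from edgeR) was the 8th highest among the 5937 genes tested. It ranged from 6.55 to 6.93 when each library was left out in turn and was 6.13 with total counts as the scale. Per length, the level of SRX1 was 0.363% and 0.270% of the summed level of the 4 peroxiredoxins in untreated cells and 5.33% and 5.63% after thiolutin. Relative to TSA1 and TSA2, which are the substrates known for sulfiredoxin in yeast, it was 0.633% and 0.557% in untreated and 13.7% and 14.4% in thiolutin. In both ratios the thiolutin libraries were above the untreated ones, and such ratios within a library do not depend on the scaling.

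The makeup of each gene family differed between the groups. TRX2 supplied 52.0% and 47.6% of the reads of TRX1 and TRX2 in untreated cells and 92.0% and 91.9% after thiolutin. The 95% Wilson interval for counting error was 51.3% to 52.7% in untreated replicate 1 and 91.8% to 92.3% in thiolutin replicate 1. TRR2 supplied 15.6% and 11.0% of the reads of the reductase pair in untreated and 2.04% in each thiolutin library. TSA2 supplied 6.55% and 3.77% of the reads of TSA1 and TSA2 in untreated and 1.59% and 1.65% in thiolutin. In all these pairs the thiolutin libraries lay outside the range of the untreated ones, and the share of a pair went to TRX2, TRR1 and TSA1.

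**Figure D3:**
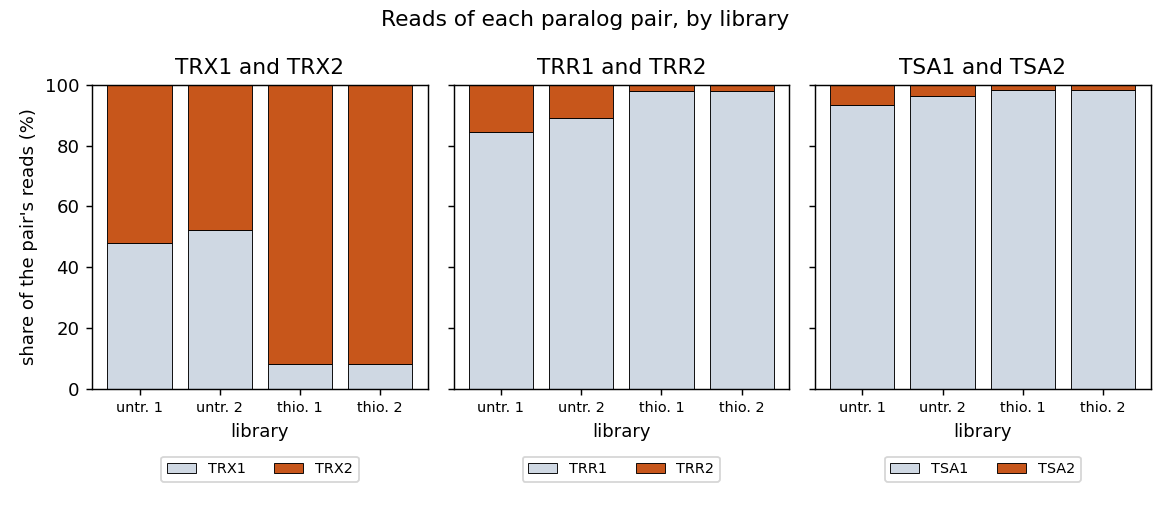
Share of the reads of each paralog pair in percent, by library (untr., untreated; thio., thiolutin; 1 and 2, replicates). TRX2 makes up 52.0% and 47.6% of its pair in untreated and 92.0% and 91.9% in thiolutin libraries, whereas TRR2 and TSA2 shrink to 2.04% and to 1.59% and 1.65% of theirs.

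Among the reads of the 4 peroxiredoxins, the share of TSA1 was 54.8% and 48.6% without and 40.62% and 40.65% with thiolutin. AHP1 went from 34.7% and 45.4% to 56.9% and 56.8%. PRX1 went from 6.69% and 4.11% to 1.79% and 1.85%, and TSA2 from 3.84% and 1.90% to 0.655% and 0.681%. AHP1 thus took the place of TSA1 as the peroxiredoxin with the most reads, although both rose. The mitochondrial genes TRX3, TRR2 and PRX1 together held 7.89% and 5.50% of the reads of the 10 genes in untreated and 1.59% and 1.65% in thiolutin libraries. Within the mitochondrial branch PRX1 was called higher while TRX3 and TRR2 were called lower on the TMM scale, and with total counts PRX1 was not called.

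The order of levels per length also differed between the groups. In untreated cells it ran from TSA1 (2329 ± 169.7 RPKM) and AHP1 (2012 ± 407) through TRX1, TRX2, TRR1 (391 ± 37.0), PRX1 (183 ± 59.5), TSA2 (129 ± 60.2), TRX3 and TRR2 (55.5 ± 10.2) to SRX1 (14.7 ± 2.70; SD, n = 2 each). The neighbours TSA1 and AHP1, TRX1 and TRX2, PRX1 and TSA2, and TSA2 and TRX3 overlapped between libraries. In thiolutin-treated cells AHP1 (16897 ± 86.8 RPKM) was followed by TSA1 (10847 ± 34.9), TRX2, TRR1 (1833 ± 3.59), SRX1 (1549.6 ± 55.0), TRX1, PRX1 (365 ± 7.71), TSA2 (178 ± 4.30), TRX3 and TRR2 (35.6 ± 0.0709). No neighbours in that order overlapped between libraries. SRX1 moved from the last place to the fifth, above TRX1, and the highest level was 159 times the lowest in untreated and 474 times in thiolutin.

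The neighbouring genes were examined because reads can run on from one transcript into the next. None of the 10 genes overlapped another annotated gene. TRX2, TRX3, TRR1, TRR2, TSA2, PRX1 and SRX1 had log2 fold changes larger in size than the genes on either side. TRX1 lies 376 bp from the pyruvate decarboxylase gene PDC1 (log2 fold change 0.72) and 1250 bp from NFG1 (1.66). Both are on the strand of TRX1, PDC1 upstream and NFG1 downstream of it. TSA1 lies 677 bp from YOX1 (3.00), a repressor of the cell cycle, which is downstream of TSA1 on the same strand. AHP1 lies 656 bp from YLR108C (4.29), which is upstream of AHP1 on the opposite strand and so is read away from it. The part of read-through or of shared upstream sequence in these values was not tested.

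The 500 bases before each start codon were searched on both strands for short motifs, because several of these genes are known targets of Yap1 and of general stress factors. The letters TTACTAA, a Yap1 site, occurred upstream of 11.9% of 5905 genes and of 4 of the 10: TRX2 with 2 matches, TSA2, AHP1 and SRX1. The second form, TGACTAA, occurred upstream of 6.01% of genes and of TRR1, TSA2 and SRX1. Either form was found for 17.2% of genes and for 5 of the 10. The matches are shown with the bases around them, on the strand of the gene and with the motif in capitals. On the gene's own strand the first form reads TTACTAA in one match of TRX2, and in the others its complement TTAGTAA is seen, while TTAGTCA is the complement of the second form. The intervals of R64 are chrVII:913423-913459 and chrVII:913387-913423 for TRX2 and chrIV:1366114-1366150 and chrIV:1365939-1365975 for TSA2, on the minus strand. On the plus strand they are chrXII:368281-368308 for AHP1, where the searched window begins, chrXI:277965-278001 and chrXI:278115-278151 for SRX1, and chrIV:1183092-1183128 for TRR1.
TRX2, far match: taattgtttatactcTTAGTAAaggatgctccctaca
TRX2, near match: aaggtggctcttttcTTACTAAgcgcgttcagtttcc
TSA2, first form: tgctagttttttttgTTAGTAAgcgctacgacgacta
AHP1, first form: tgtctaTTAGTAAtcaagaaaagaaccc
SRX1, first form: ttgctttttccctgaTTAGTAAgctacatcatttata
TRR1, second form: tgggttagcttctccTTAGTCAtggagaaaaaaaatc
TSA2, second form: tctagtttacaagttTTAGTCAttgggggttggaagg
SRX1, second form: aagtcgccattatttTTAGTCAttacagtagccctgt
Of the 5 genes with either form, TRX2, TRR1, AHP1 and SRX1 were called higher and TSA2 was not called. Of the 5 without, TSA1 and PRX1 were called higher, TRX3 and TRR2 lower, and TRX1 was not called. Of all genes tested, 31.2% were called higher and 32.4% lower. The calls among all genes with either form were not counted, and other forms of the site were not searched. A link between the letters and the changes was not tested. The letters AGGGG, the stress response element read by Msn2 and Msn4, were found upstream of 8 of the 10 genes, all but TRX1 and TRR1, and of 34.2% of all genes. Of the paired repeats read by the heat shock factor, GAANNTTC was found upstream of AHP1 and of 19.1% of all genes, and TTCNNGAA upstream of 21.3% of genes and none of the 10. The Rpn4 site GGTGGCAAA occurred upstream of 1.66% of genes and of none of the 10. These are matches of letters in one window and not measured sites.

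**Figure D4:**
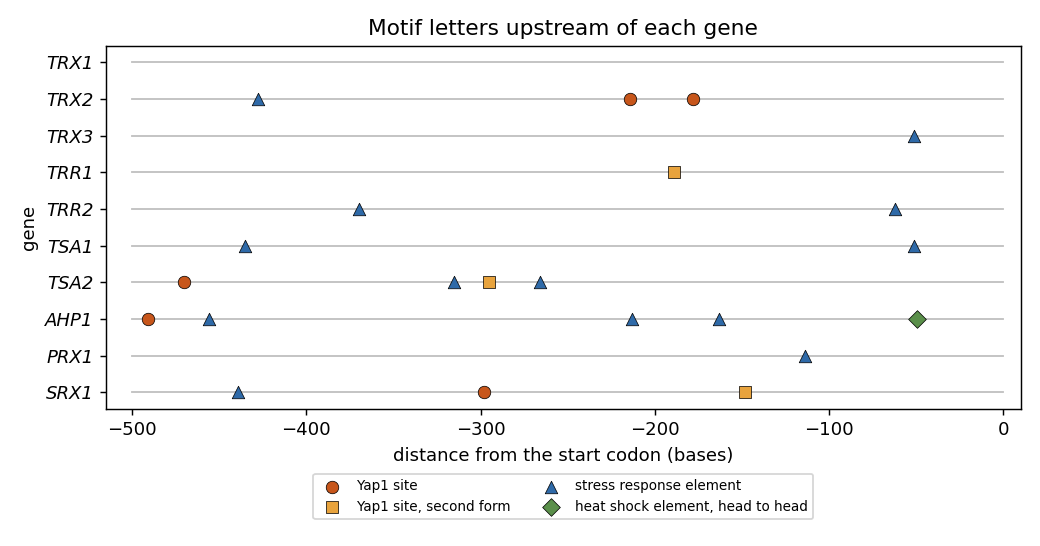
Positions of motif matches in the 500 bases upstream of each start codon, as distance from the start codon in bases. The Yap1 letters (circles, and squares for the second form) lie upstream of TRX2, TRR1, TSA2, AHP1 and SRX1, and the stress response element (triangles) lies upstream of 8 of the 10 genes.

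Regulators of the system were examined next, and YAP1 itself rose. YAP1 had a log2 fold change of 2.65 (adjusted p = 0.000131 from edgeR) and its relative CAD1 one of 0.90. MSN2 was higher (0.75) and its partner MSN4 lower (-1.90), although MSN2 was not called with total counts as the scale (0.16, adjusted p = 0.317). YBP1, which helps the peroxide sensor to oxidize Yap1, was lower (-0.94). SKN7 had a log2 fold change of -0.36 and did not pass with all libraries (adjusted p = 0.0834 from edgeR). With total counts as the scale SKN7 was called lower, at -0.95 (adjusted p = 0.00265 from edgeR). Its log2 fold change was -0.54 without untreated replicate 1 and -0.15 without untreated replicate 2. Fits without an untreated library take the spread from the closely matched thiolutin pair. Of 8 regulators, 3 were higher, 2 lower and 3 not called, with a median log2 fold change of -0.16 beside -0.04 for all genes. Of all genes tested, 31.2% were called higher and 32.4% lower, and with total counts as the scale 965 were higher and 3605 lower. The number of lower regulators was 4 without untreated replicate 1, and it was 5 without untreated replicate 2 and with total counts as the scale, where 2 were higher.

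Enzymes that draw electrons from thioredoxin moved in both directions. Of 11 genes for such enzymes and their subunits, 6 were higher, 3 lower and 2 not called, beside 31.2% higher and 32.4% lower of all genes tested. Among the 6 were RNR2 (0.77) and RNR4 (0.90), small subunits of ribonucleotide reductase, which do not take electrons from thioredoxin themselves. The median log2 fold change of the 11 was 0.77. GPX2, a peroxidase that uses thioredoxin (3.00), MET16, which reduces activated sulfate (2.74), and MXR1, which repairs oxidized methionine (2.73), were the highest. GPX1 (-0.90), RNR1, the large subunit of ribonucleotide reductase (-0.86), and DOT5, a nuclear peroxiredoxin (-0.82), were lower. All the calls named here had an adjusted p of at most 0.0288 from edgeR with all 4 libraries. The log2 fold change of GPX1 was -0.49 without untreated replicate 1. GPX1 was no longer called without thiolutin replicate 1 (log2 fold change -0.837) or without thiolutin replicate 2 (-0.96). RNR1 was not called without thiolutin replicate 1 (-0.825). On the scale of total counts 5 were higher and 4 lower, beside 965 higher and 3605 lower of the 5937 genes tested.

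The glutathione arm, the other thiol reduction system of the cell, had 7 of 13 genes higher, 3 lower and 3 not called. Of all genes tested, 31.2% were higher and 32.4% lower. The median log2 fold change of the arm was 0.58. With total counts as the scale this median was -0.01, and 4 genes of the arm were higher and 4 lower. Of the 5937 genes tested, that scale called 965 higher and 3605 lower. GTT2, a glutathione transferase (2.85), GRX3, a monothiol glutaredoxin (1.22), and GSH1, which catalyses the first step of glutathione synthesis (1.05), were higher. GRX1 (-0.83), GRX4 (-0.76) and the glutathione synthetase GSH2 (-0.44) were lower. Without thiolutin replicate 1 and without thiolutin replicate 2, GRX1 (log2 fold change -0.824 and -0.836) and GSH2 (-0.452 and -0.423) were not called. The number of lower genes then fell to 1 in each fit, and that of higher genes to 4 without thiolutin replicate 1.

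NADPH feeds both arms. ZWF1, the first enzyme of the pentose phosphate pathway (1.88), the NAD kinase gene UTR1 (0.98) and the aldehyde dehydrogenase gene ALD6 (0.82) were higher, while SOL4 (-2.80) and GND2 (-2.76), isoforms of later steps of the pathway, and the transaldolase gene TAL1 (-0.79) were lower. Of 13 genes of NADPH supply, 4 were higher, 6 lower and 3 not called, with a median log2 fold change of -0.35. Of all genes tested, 31.2% were higher and 32.4% lower. Without thiolutin replicate 1 and without thiolutin replicate 2, ALD6 (log2 fold change 0.824 and 0.81) and TAL1 (-0.779 and -0.803) were not called. With 1 untreated library left out, the log2 fold change of ALD6 was 0.50 (without replicate 1) or 1.24 (without replicate 2), and that of GND2 was -1.85 without untreated replicate 1. On the scale of total counts 2 were higher, 8 lower and ALD6 was not called (adjusted p = 0.441 from edgeR). Of the 5937 genes tested, that scale called 965 higher and 3605 lower. A last list of 6 genes held catalases, cytochrome c peroxidase, superoxide dismutases and CCS1, the copper chaperone of Sod1. Of these 6, 4 were higher: CTA1, the peroxisomal catalase (3.16), CCP1, the mitochondrial cytochrome c peroxidase (2.84), SOD1 (0.88) and CCS1 (0.64). The median of the 6 was 0.76. On the TMM scale with all 4 libraries, edgeR called none of the 6 lower, and 0 were lower at an unadjusted p under 0.05. DESeq2 and the replicate block each called 1 lower. CTT1 (-0.64, adjusted p = 0.134 from edgeR) and SOD2 (-0.33, adjusted p = 0.114 from edgeR) were not called. For both of these genes each thiolutin library lay below each untreated one. When total counts set the scale, 2 were higher and 2 lower, and SOD1 was not called (adjusted p = 0.0816). SOD1 was also not called without thiolutin replicate 1 (log2 fold change 0.837). For CTT1 the log2 fold change was -0.06 without untreated replicate 1 and -1.04 without untreated replicate 2. For SOD2 these values were -0.11 and -0.51.

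**Figure D5:**
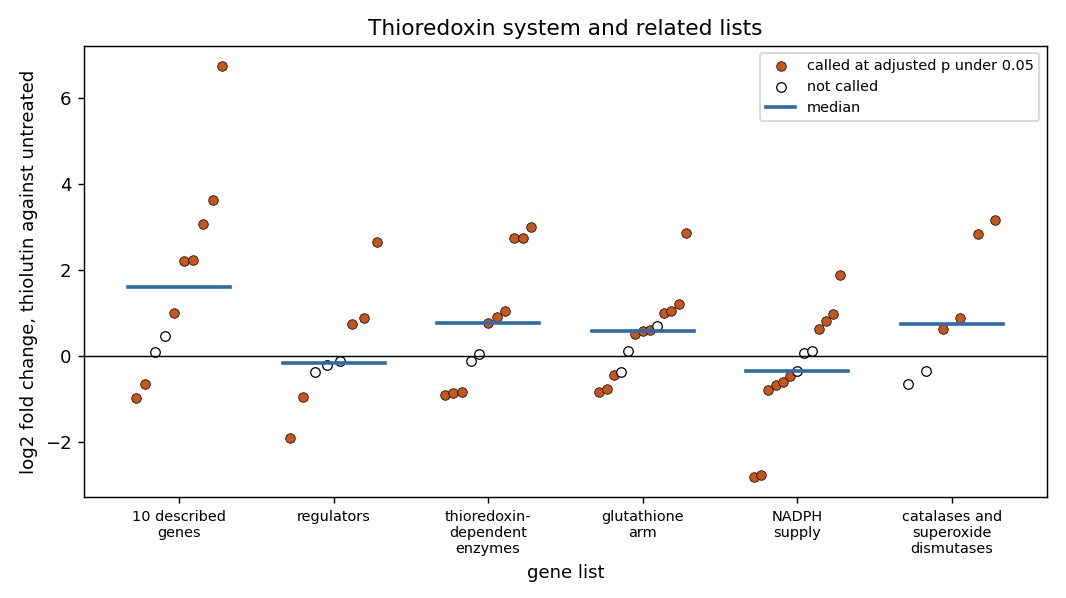
Log2 fold changes (thiolutin against untreated, TMM scale) of the 10 genes and of the related lists, 1 point per gene, filled where the adjusted p was under 0.05, with a bar at each median. The medians are 1.61 for the 10 genes, -0.16 for regulators, 0.77 for thioredoxin-dependent enzymes, 0.58 for the glutathione arm (-0.01 with total counts as the scale), -0.35 for NADPH supply and 0.76 for catalases and superoxide dismutases.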

How the data were processed

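RNA from 2 untreated and 2 thiolutin-treated cultures was analysed. The authors deposited a count table whose column names call the values raw counts, that is reads per gene without normalization. The submitters' processing notes name the genome build R64 and DESeq2. No aligner, counting program or use of strand is stated in the sources used here. Normalised values, fold changes and p-values that the authors deposited were not used. After 3 rows naming no gene were left out, 6209 genes remained, and filterByExpr (minimum count 10) kept 5937. Counts were tested with edgeR 4.0.16 (TMM, quasi-likelihood test, Benjamini-Hochberg) in R 4.3.3, and the fit was tested on simulated data. The common biological coefficient of variation was 12.2%. A standard error is the log2 fold change divided by the square root of the F statistic. RPKM uses TMM-scaled library sizes and coding length. Wilson intervals cover counting error only. With 2 libraries per group, p-values measure the spread between these libraries, and the spread is shared across genes. Sequences, coordinates and motif matches came from the RefSeq genome and annotation of R64, where all 10 genes had the coordinates of the count table.

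Genes of the related lists are named by size of change, up to 3 called genes in each direction, with YAP1, SKN7 and DOT5 named in any case. CTT1, SOD2, CCS1, RNR2 and RNR4 are named in addition, and neighbours where they changed more. The genes and lists were chosen with earlier results of these data known. Alternatives were another test (DESeq2 1.42.0), its size factors within edgeR, scaling by total counts, no filter on low counts, a replicate block, each library left out, paralog pairs summed, an adjusted p under 0.01 and shares per kilobase. Python 3.11.15 with matplotlib 3.10.9 was used. Growth, lifespan and spectroscopy experiments were not analysed here.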

Additional observations from a re-analysis of the deposited data

How the results depend on the processing

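Of the 10 genes, 8 were called with all libraries, with either scaling alternative, with DESeq2 and without the filter, and 6 at an adjusted p under 0.01. Leaving out each library in turn gave 6 to 10, and 2062 to 5009 over all genes in place of 3774. With a minimum log2 fold change of 1 in size the number was 5, and 5 to 7 under the alternatives. TRX2, TRX3, TRR1, TSA1, AHP1 and SRX1 were called in the same direction under every alternative. With total counts as the scale TRX1 turned to -0.48 and TSA2 to -0.12. Summed with its paralog, TRR2 turned to 2.06, since TRR1 holds most reads of that pair, and the sums were 2.74 for TRX1 and TRX2 and 2.17 for TSA1 and TSA2. Per kilobase, the thiolutin shares were 91.9% for TRX2 and 1.91% for TRR2 in place of 92.0% and 2.04%. With total counts as the scale, 5 regulators were lower, 4 genes of the glutathione arm and 2 of NADPH supply were higher, and 2 of the catalases and superoxide dismutases were higher and 2 lower. Over all genes tested that scale called 965 higher and 3605 lower. With 1 library left out, the lower regulators numbered 2 to 5, the lower thioredoxin-dependent enzymes 1 to 4, the glutathione genes 4 to 9 higher and 1 to 4 lower, the NADPH genes 2 to 6 higher and 2 to 7 lower, and the catalases and superoxide dismutases 2 to 4 higher and 0 to 2 lower. DESeq2 and the replicate block each called 1 of the latter lower. The deviations of same-numbered libraries had a correlation of 0.023 across genes. With 2 libraries per group this value cannot show whether same-numbered libraries shared a batch, and the labels name none. The replicate block gave 9 of the 10 genes, adding TSA2 (0.55, adjusted p = 0.0165 from edgeR), and 3857 of all genes, and SKN7 was called lower in it (-0.35, adjusted p = 0.0343 from edgeR). The cause of these differences was not tested. SRX1 had the fewest reads of the 10 genes in the untreated libraries, 181 and 235.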
